A study of Mus musculus with 2 samples.

Results

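Divergent gene pairs are 2 genes on opposite strands whose 5′ ends lie side by side and point away from each other. Peaks of CHD2 at such pairs were taken from the optimal peak list of ES-E14 mouse embryonic stem cells on the mm10 genome. A peak was kept where its summit lay within 1 kb of the 5′ end of a protein-coding gene, with the 5′ end of a protein-coding gene of the opposite strand at most 1 kb upstream. Each peak was counted for 1 pair only, the one whose middle lay nearest to the summit. This gave 346 of 8282 peaks (4.18%), or 12.0% of the 2893 peaks with a summit within 1 kb of a protein-coding 5′ end. They lay at 310 of 745 divergent pairs. The summit itself lay between both starts in 46.0% of them, so they are called divergent peaks here by their rule and not by an exact place.

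The study mapped CHD2 by ChIP-seq, with an antibody against CHD2 named in the labels, in 1 group of 2 biological replicates of the 129/Ola line ES-E14, derived from a male embryo. The labels name no treatment or genetic change, and both replicates cite the same biosample record, so their spread may be technical. Only lists of peaks were analysed, so the embryonic stem cell label could not be checked against marker genes, and the read depth is unknown. Each peak carries a signal, a value of the peak caller with no stated normalization, which is compared here only within 1 list. The optimal list came from both replicates by the irreproducible discovery rate procedure, which compares the order of peaks between replicates, and each replicate also had a relaxed list of 300000 peaks of its own.

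Divergent promoters serve 2 genes from a single stretch of open chromatin, in which each strand directs its own start. Many of them are rich in CpG and lack a TATA box, and genes of DNA repair, mitochondria and translation are known to be frequent among them. CHD2 is a chromodomain helicase that moves and assembles nucleosomes with the energy of ATP. It is known to be found at active promoters and to help deposit histone H3.3. Among the factors known to bind such promoters are NF-Y, Sp and KLF proteins and ETS factors, and NRF1 and BANP, which bind palindromes that hold CpG.

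The sequences between the starts are shown for some of the leading pairs. Of the 745 pairs, 467 had a gap of 12 to 300 bp whose sequence was held by the RefSeq promoter table (GRCm38.p6), and 204 of these had a peak. The 10 below were chosen after their sequences were seen, as leading pairs with a motif, as carriers of a repeated motif, or, for the last, as a pair with no peak. They are not typical in this: 141 of the 204 stretches with a peak held any of the motifs below (69.1%), as did 167 of the 263 without (63.5%). The stretches of the strong pairs Mad1l1/Nudt1, Mthfd2/Mob1a and Stxbp4/Cox11, of 13, 22 and 47 bp, held none. All are on the plus strand of mm10, 5′ to 3′, from the base after the start of the left gene to the base before that of the right gene. Capitals mark exact matches, on either strand, to 1 of 10 motifs. These were CCAAT for NF-Y, GGGCGG for Sp and KLF proteins, CCGGAAG for ETS factors, AAGATGGC for YY1, TGACGTCA for the cyclic AMP response element, CACGTG for the E-box, TATAAA for the TATA box, and the motifs of NRF1, BANP and ZNF143/THAP11, each searched as 1 exact sequence. None of these contains another. The NRF1 match is the one in Vmac/Ndufa11, and the BANP match, a palindrome around CGCG, is the one in Smc1b/Ribc2.
Atp5pb/Wdr77, chr3:105959264-105959497: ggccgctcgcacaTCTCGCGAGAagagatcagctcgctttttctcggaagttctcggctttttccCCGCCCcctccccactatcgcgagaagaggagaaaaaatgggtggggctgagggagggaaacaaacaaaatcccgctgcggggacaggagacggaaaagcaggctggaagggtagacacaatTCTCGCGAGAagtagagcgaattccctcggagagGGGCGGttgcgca
Styxl1/Mdh2, chr5:135778425-135778648: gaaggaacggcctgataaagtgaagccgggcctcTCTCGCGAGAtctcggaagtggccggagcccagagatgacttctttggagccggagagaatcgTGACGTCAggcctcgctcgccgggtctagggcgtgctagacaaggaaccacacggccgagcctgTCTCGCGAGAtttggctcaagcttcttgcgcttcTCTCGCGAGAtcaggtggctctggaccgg
Smc1b/Ribc2, chr15:85131958-85132059: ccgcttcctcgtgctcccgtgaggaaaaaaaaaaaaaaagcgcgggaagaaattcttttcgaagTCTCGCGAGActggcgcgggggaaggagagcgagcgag
Noa1/Polr2b, chr5:77310414-77310483: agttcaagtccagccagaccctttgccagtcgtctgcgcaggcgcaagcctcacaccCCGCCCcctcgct
Vmac/Ndufa11, chr17:56717700-56717761: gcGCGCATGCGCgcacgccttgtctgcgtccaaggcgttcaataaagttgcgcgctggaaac
Ankrd49/Mre11a, chr9:14784574-14784653: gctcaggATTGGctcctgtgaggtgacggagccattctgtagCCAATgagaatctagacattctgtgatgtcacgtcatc
Lrsam1/Rpl12, chr2:32961655-32961711: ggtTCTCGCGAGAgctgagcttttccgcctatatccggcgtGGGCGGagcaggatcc
H2bc7/H2ac7, chr13:23574208-23574380: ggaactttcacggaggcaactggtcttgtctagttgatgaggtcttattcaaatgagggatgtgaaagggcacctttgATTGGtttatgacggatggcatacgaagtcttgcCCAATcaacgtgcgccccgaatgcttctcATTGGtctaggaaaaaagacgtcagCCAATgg
Cdr2/Mfsd13b, chr7:120982313-120982441: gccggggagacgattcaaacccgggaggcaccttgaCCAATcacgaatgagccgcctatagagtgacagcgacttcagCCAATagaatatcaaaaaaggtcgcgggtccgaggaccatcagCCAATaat
Lrrc46/Mrpl10, chr11:97041370-97041581: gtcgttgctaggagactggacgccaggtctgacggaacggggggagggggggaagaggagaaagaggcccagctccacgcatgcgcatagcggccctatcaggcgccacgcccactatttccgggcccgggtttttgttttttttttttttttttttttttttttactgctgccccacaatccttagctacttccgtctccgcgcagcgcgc

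The Styxl1/Mdh2 stretch held the BANP motif at bases 35, 162 and 196, counted from 1 at its left end, and the CHD2 summit fell on base 163. In the Atp5pb/Wdr77 stretch exact matches to the same motif began at bases 14 and 188. The summit lay on base 81, nearer to a GGGCGG match than to either of these. From base 81 on, however, the stretch reads tatcgcgaga, which differs from the BANP motif in 1 letter and was not counted. Near matches were not counted in any stretch. The Lrrc46/Mrpl10 stretch, of a pair with no peak, likewise holds acgcatgcgc, which differs from the NRF1 motif in 1 letter. In Smc1b/Ribc2 the exact BANP motif spanned bases 65 to 74, with the summit on base 57. Cdr2/Mfsd13b held CCAAT at bases 37, 79 and 122, with the summit on base 82. H2bc7/H2ac7, a pair of histone genes, held 4 CCAAT matches, and the summit on base 124 lay between 2 of them. At Vmac/Ndufa11 the summit fell on base 52, whereas the NRF1 match ended on base 12. At Ankrd49/Mre11a both CCAAT matches lay left of the summit, which fell 7 bp inside Mre11a. At Noa1/Polr2b and Lrsam1/Rpl12 the summits lay outside the stretch, 224 bp inside Noa1 and 16 bp inside Lrsam1.

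The first question was how often a divergent pair carried CHD2. In the optimal list 310 of 745 pairs did, which is 41.6% (exact Clopper-Pearson 95% interval 38.0 to 45.2, counting error only). Counted by gene, 618 of the 1482 genes of divergent pairs had a summit within 1 kb of their own 5′ end (41.7%, 39.2 to 44.3). The genes of a pair mostly share their peak and are not independent, so this interval, and those by CpG class, are too narrow. A gene of a pair also counts a peak centred on its neighbour's start. The share was 12.1% of the 20049 genes in no divergent pair (11.6 to 12.5) and 14.1% of all 21531 genes with a known strand. Replicate 1, with its list limited to its 8282 strongest peaks, gave 42.6% of genes of divergent pairs and 12.5% of other genes. Replicate 2 gave 39.6% and 12.3%. The higher share at divergent genes was thus seen with either replicate alone. With a single group of samples there was no contrast to test, and genes are not replicates, so no p-value is given.

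Of the pairs, 316 (42.4%) carried a peak in replicate 1 and 293 (39.3%) in replicate 2. The 247 pairs in both made up 78.2% of the pairs of replicate 1 and 84.3% of those of replicate 2. Among the 310 pairs of the optimal list, 242 were in both limited lists and 9 in neither. At 374 pairs, neither the optimal list nor the limited list of either replicate held a peak. The full relaxed lists were not counted here. In 305 of the 310 pairs the 5′ ends of both genes lay within 1 kb of a summit, so the genes of a pair were nearly always counted together.

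The distance between the starts ranged from 1 to 1000 bp over all pairs. Its median was 110 bp for pairs with a peak and 95 bp for those without. Of 371 pairs with starts up to 100 bp apart, 39.4% had a peak (34.3 to 44.5). The share was 44.9% of 207 pairs at over 100 to 250 bp (38.0 to 52.0), 44.7% of 103 pairs at over 250 to 500 bp (34.9 to 54.8) and 39.1% of 64 pairs at over 500 to 1000 bp (27.1 to 52.1). The 4 intervals overlapped, and all lay above the share of genes in no pair. That share is counted per gene, around 1 start, while a pair counts a summit near either of its starts, which is a wider window.

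**Figure D1:**
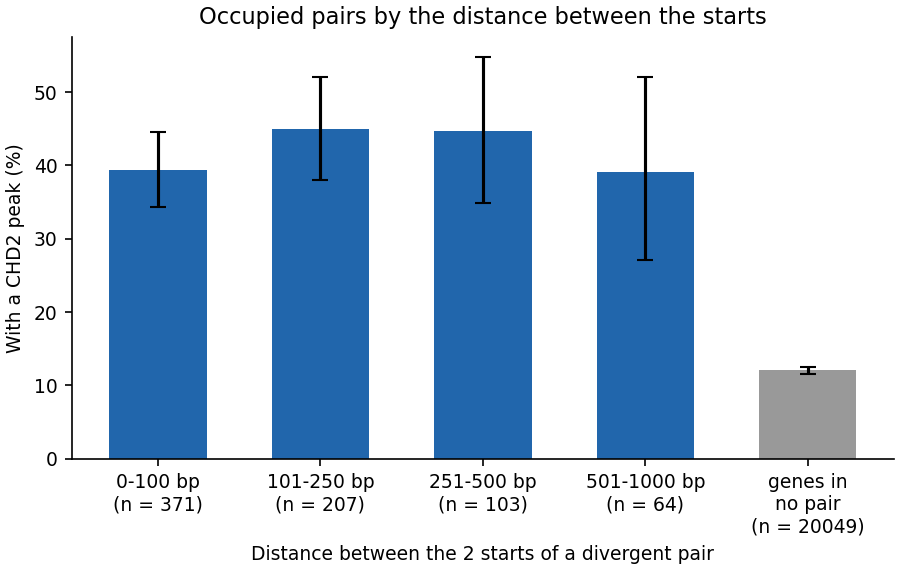
Percent of divergent pairs with a CHD2 peak in the optimal list, by the distance in bp between the starts (blue), and of genes in no divergent pair with a summit within 1 kb (grey); bars start at 0 and error bars are exact 95% intervals. The blue bars run from 39.1% to 44.9% and overlap one another, and the grey bar stands at 12.1%. Blue counts pairs, with a summit near either start, and grey counts genes around 1 start.

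Promoter CpG differed between the groups of genes, so the shares were also set side by side within classes of CpG. CpG observed over expected was measured on the mm9 sequence from 250 bp before to 50 bp after the start and was joined to mm10 genes by symbol. Its median was 0.849 in divergent genes with a summit, 0.815 in those without, 0.783 in other genes with a summit and 0.462 in those without. Genes were split into 4 classes of equal size by this value. In the highest class, 45.7% of 736 divergent genes (42.0 to 49.3) and 22.9% of 4342 other genes (21.7 to 24.2) had a summit. In the next lower class the shares were 41.0% of 476 and 19.8% of 4604. Below that they were 37.5% of 160 and 7.79% of 4919, and in the lowest class 20.9% of 67 (11.9 to 32.6) and 1.86% of 5012. Divergent genes thus had the higher share within each class, and the same held in each replicate's own list. The peak lists hold no measure of transcription, so the part of expression in this was not tested.

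**Figure D2:**
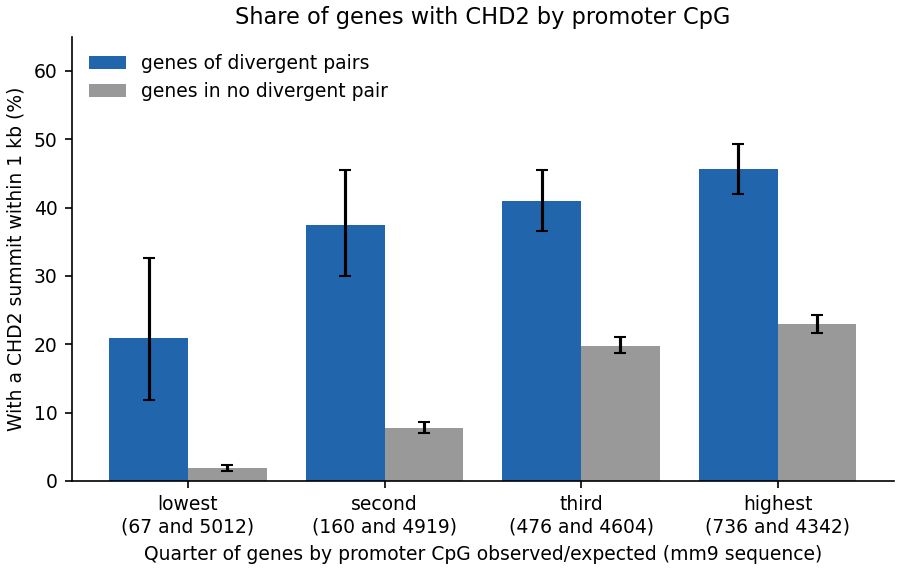
Percent of genes with a CHD2 summit within 1 kb of the 5′ end (y axis) in 4 equal classes of genes by promoter CpG observed over expected on mm9 (x axis), for genes of divergent pairs (blue) and genes in no divergent pair (grey). Error bars are exact 95% intervals, too narrow where genes share a peak, and the number of genes stands below each pair of bars; the blue bar is above the grey one in every class, at 45.7% against 22.9% in the highest.

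Divergent peaks were somewhat stronger than other promoter peaks. Their signal in the optimal list ran from 5.83 to 427 with a median of 46.1 and quartiles of 28.4 and 91.8. The 2547 other promoter peaks had a median of 38.8 (quartiles 25.0 and 80.5), a ratio of 1.19. In replicate 1 the medians were 25.5 and 21.7 (ratio 1.18), and in replicate 2 they were 24.6 and 20.6 (ratio 1.19). The distributions overlapped over most of their range. Of promoter peaks among the strongest of 4 equal parts of the list, 168 were divergent (13.8%, 11.9 to 15.8), against 35 in the weakest (7.34%, 5.16 to 10.1). The ratio was 1.08 within the stronger 4141 peaks of the list and 1.04 on the separate mm9 list.

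**Figure D3:**
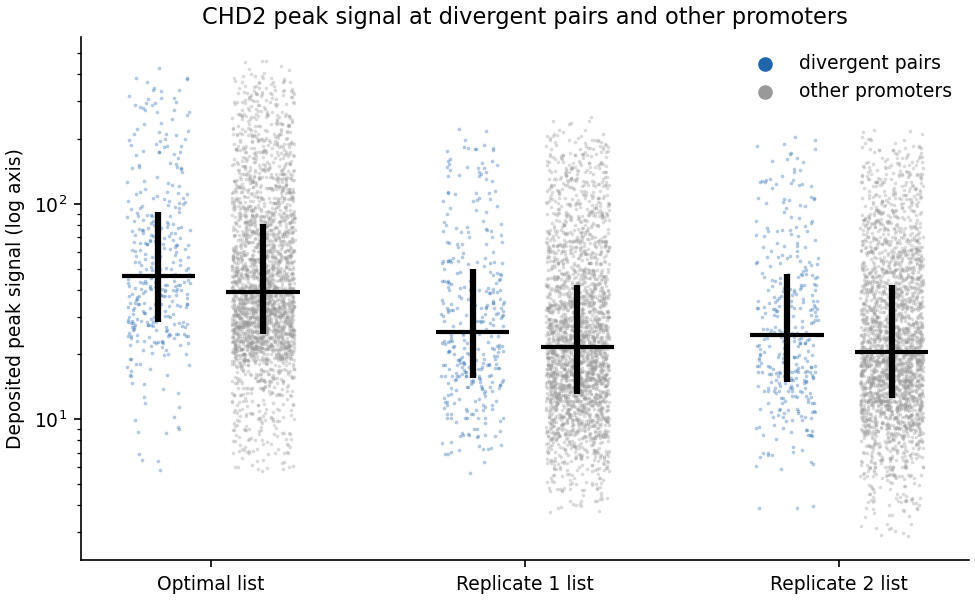
Deposited peak signal (log y axis) in the optimal list and in each replicate's own list, for divergent peaks (blue) and other promoter peaks (grey); each point is a peak, the thick bar spans the quartiles and the line marks the median. The groups overlap widely, with medians of 46.1 and 38.8 in the optimal list.

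The optimal list was itself made from the agreement of these replicates, so the matches below are largely fixed by that choice and describe the peaks only. Of the 346 peaks, 345 overlapped a relaxed peak of each replicate and 1 overlapped a peak of replicate 2 only, while 2484 of the 2547 other promoter peaks overlapped a peak of each. Across those 345 peaks the signals of both replicates had a Spearman's rho of 0.778 and, on the log2 scale, a Pearson's r of 0.832. Over other promoter peaks they were 0.745 and 0.789. Both run across peaks that share the same 2 libraries, and describe these lists only. Among the 8282 strongest peaks of both replicates were 264 divergent peaks (76.3%, 71.5 to 80.7) and 66.5% of other promoter peaks (64.6 to 68.3). Of the divergent peaks, 90.8% overlapped a peak of the conservative list, against 80.8% of other promoter peaks.

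**Figure D4:**
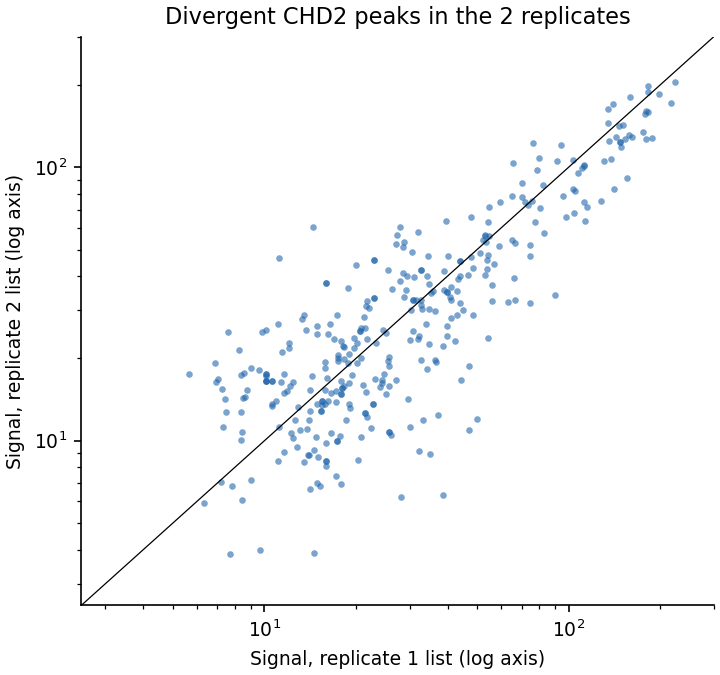
Signal of the 345 matched divergent peaks in the list of replicate 1 (x) and of replicate 2 (y), both on log axes, with the line of equal values; each point is a peak. The points follow the line, with rho at 0.778, and scatter more widely at low signal.

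The 3 peaks whose rank differed most between the replicates were all weak, and all ranked far lower in replicate 2. Tatdn1/Ndufb9, which includes a subunit gene of respiratory complex I, had a signal of 19.0 and ranked 4916 in replicate 1 and 142389 in replicate 2. Mrpl13/Mtbp, which includes a mitochondrial ribosomal protein gene, had 13.8 and ranked 11664 and 133839. Plaa/Ift74, which includes an intraflagellar transport gene, had 11.9 and ranked 23395 and 143720.

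The strongest divergent peak lay between a gene of energy metabolism and a gene of protein methylation. This peak of Atp5pb, subunit b of ATP synthase, and Wdr77, a cofactor of the arginine methyltransferase Prmt5, spanned chr3:105959132-105959532. Its signal was 427 in the optimal list, 223 in replicate 1 and 205 in replicate 2. At Styxl1, a pseudophosphatase, and Mdh2, malate dehydrogenase of the mitochondrial matrix, the peak (chr5:135778387-135778759) had 386, 217 and 172 in the same order. Both stood near the top of the whole optimal list, at ranks 6 and 17. Mad1l1, of the spindle checkpoint, and Nudt1, which clears oxidised nucleotides, had 384, 198 and 186 (chr5:140321452-140321737). Zwilch, a kinetochore protein, and Rpl4, of the large ribosomal subunit, had 380.1, 182 and 198 (chr9:64172976-64173422). Smc1b, the meiotic form of a cohesin subunit, and Ribc2 had 369, 182 and 189 (chr15:85131835-85132163). Each of these 5 peaks also stood high in the replicates' own lists, at ranks between 7 and 46.

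Noa1, a mitochondrial GTPase, and Polr2b, a core subunit of RNA polymerase II, shared a peak of 346, 183 and 159 (chr5:77310034-77310328). Mthfd2, an enzyme of mitochondrial folate metabolism, and Mob1a, of the Hippo pathway, had 339, 179 and 161 (chr6:83325884-83326174), with the summit inside their gap of 23 bp. Vmac and Ndufa11, of respiratory complex I, had 338, 159 and 180.4 (chr17:56717612-56717891). The next was Ankrd49 with Mre11a, the nuclease of double-strand break repair. Its peak (chr9:14784504-14784811) had 334, 178 and 156. Stxbp4 and Cox11, a copper chaperone of cytochrome oxidase, had 316, 188 and 128 (chr11:90637976-90638254). Tepsin and Ndufaf8, an assembly factor of complex I, had 311, 140.1 and 170.2 (chr11:120098629-120098957). Stxbp4/Cox11 ranked 37 in the list of replicate 1 and 122 in that of replicate 2, while Tepsin/Ndufaf8 ranked 144 and 39. The order among these pairs is thus not the same in both.

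Alg12, a mannosyltransferase of N-glycan synthesis, and Creld2 had 311, 176 and 135 (chr15:88819346-88819631). Slc26a8, an anion transporter of the testis, and Mapk14, the p38 alpha kinase, had 307, 179 and 127 (chr17:28691143-28691507). Sharpin, of the linear ubiquitin ligase, and Maf1, a repressor of RNA polymerase III, had 297, 135 and 163 (chr15:76351077-76351357). Mau2, of the cohesin loader, and Sugp1, a splicing protein, had 295, 162 and 129 (chr8:70042645-70043004).

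At the other end, the pairs whose best peak was weakest had signals from 8.63 to 16.0. Pidd1/Rplp2, which includes an acidic ribosomal protein gene, had 8.63, with 6.32 in replicate 1 and 5.90 in replicate 2. Plaa/Ift74 and Mrpl13/Mtbp were given above. Tbc1d17/Akt1s1 had 14.7, 8.41 and 6.08. Uqcrh/Lrrc41, which includes a subunit gene of complex III, had 16.0, 7.22 and 7.04. Ribosomal and respiratory chain genes were thus found at both ends of the range.

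A single peak was found at 276 pairs, while 32 pairs had 2 peaks and 2 had 3. The outer summits of these 34 pairs were 200 to 1689 bp apart, and 19 lay within 250 bp. In 20 pairs both peaks overlapped the same peak of each replicate, so their replicate values are identical and count double in the correlations above. Brca1/Nbr1 had summits 202 bp apart with signals of 62.6 and 57.4. Some pairs instead held well separated peaks. Dido1/Gid8 had 148 and 50.2 at 892 bp, and Cbx5/Hnrnpa1, a heterochromatin protein gene beside one for an RNA-binding protein, had 64.7 and 55.5 at 821 bp. The lowest signal of all divergent peaks, 5.83, belonged to the second peak of 2810408A11Rik/Neurl4, whose first had 43.5. Usp5/Cdca3 and the histone pair H2ac22/H2bc22 had 3 peaks each. Dido1/Gid8, Cbx5/Hnrnpa1, Usp5/Cdca3 and H2ac22/H2bc22 are among 9 pairs with a summit inside each gene. These examples were chosen after their values were seen.

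Next, the summit was placed relative to the starts. It lay between them in 159 of 346 peaks (46.0%, 40.6 to 51.4), inside the minus-strand gene in 84 and inside the plus-strand gene in 103. Where the starts were up to 100 bp apart, 26.5% of 162 summits lay between them (19.9 to 34.0). This was 62.9% of 105 at over 100 to 250 bp (52.9 to 72.1) and 64.2% of 53 at over 250 to 500 bp (49.8 to 76.9). At over 500 to 1000 bp it was 61.5% of only 26 (40.6 to 79.8). The short gap offers the summit little room, and the median summit of that class lay 57.8 bp from the middle. The share also rests on the annotation of the starts, taken here at the outer 5′ end of each gene. With the starts of the RefSeq promoter table, an alternative chosen after the data were seen, it was 58.7%, and on mm9 it was 63.1%.

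Over all peaks the median distance of the summit from the middle of the gap was 78.2 bp, and 56.4% of summits lay within 100 bp of it. By class it was 57.8, 55.0, 112 and 353 bp in order of rising gap. In the widest class, of only 26 peaks, the median distance to the nearer start was 78.5 bp, so the typical summit there lay near a start rather than midway. Within 100 bp of the nearer start were 67.1% of divergent summits (61.8 to 72.0) and 45.7% of other promoter summits (43.7 to 47.6), although a divergent summit has 2 starts to be near to. Of the other promoter summits, 64.7% lay upstream of their start.

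**Figure D5:**
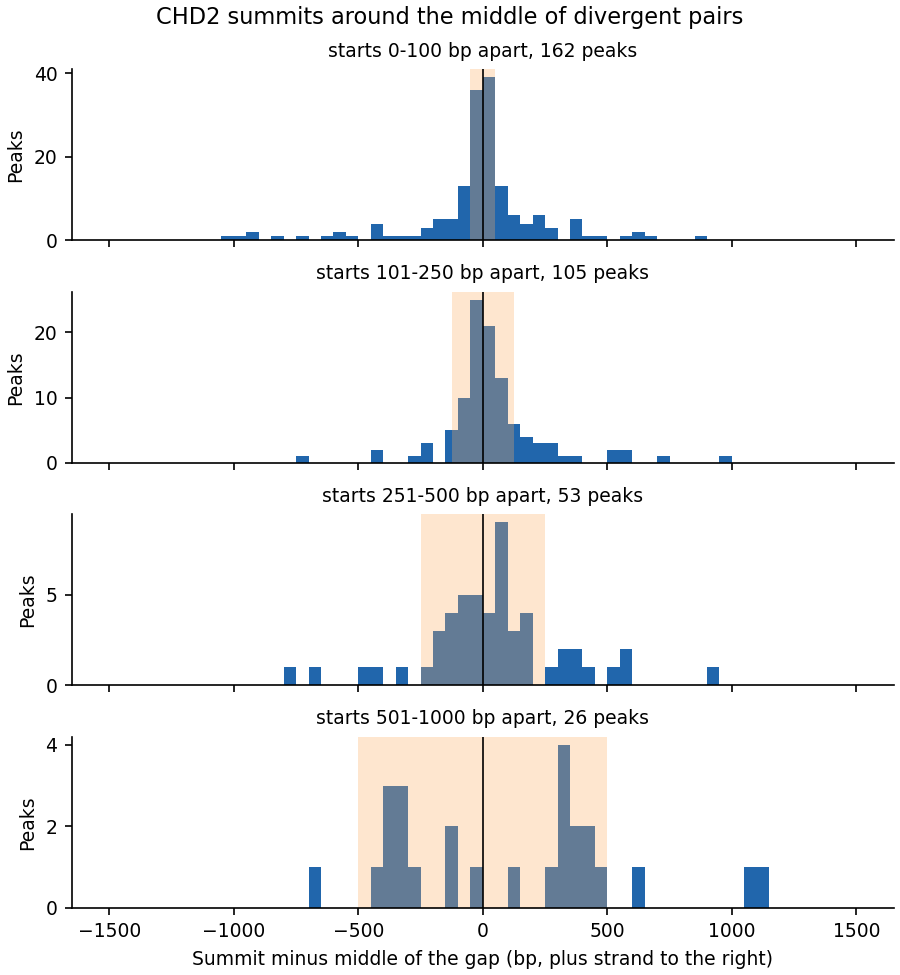
Number of divergent peaks (y axis) by the distance in bp of the summit from the middle of the gap (x axis, plus strand to the right), in 4 classes of the distance between the starts; the shaded band is the widest gap of the class and the line marks the middle. Summits gather at the middle for starts up to 250 bp apart and spread in the widest class, where the median distance is 353 bp.

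The 10 motifs were then counted within 50 bp of the summit in the mm9 list, since the genome sequence used here is mm9. On that build 806 divergent pairs held 236 divergent peaks, at 224 pairs, beside 1717 other promoter peaks. CCAAT was found at 53.8% of divergent summits (47.2 to 60.3), 48.9% of other promoter summits (46.5 to 51.3) and 13.8% of all 22367 protein-coding starts in windows of the same length. At least 2 CCAAT matches were found in 27.5%, 24.6% and 1.53% of these windows. The BANP motif was found at 6.36% of divergent summits (3.60 to 10.3), 7.34% of other promoter summits and 0.344% of all starts. Divergent and other promoter peaks were close in both motifs, with overlapping intervals, and both stood far above the share of all starts. The windows of all starts were placed on the start and not on a summit. Their median CpG observed over expected was also lower, at 0.588, against 0.831 at divergent and 0.789 at other promoter summits. The part of placement and CpG in the difference from all starts was not tested.

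GGGCGG was found at 24.2% of divergent summits and 27.4% of all starts. CCGGAAG was found at 11.9% (8.03 to 16.7), against 8.15% of other promoter summits and 6.47% of all starts. The NRF1 and ZNF143/THAP11 motifs, AAGATGGC, TGACGTCA, CACGTG and TATAAA were each found at 2.12% of divergent summits or fewer. Among all starts TATAAA was found in 5.16%. A match is a run of letters and does not show that a factor is bound.

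Set around the middle of the gap, the windows of pairs with and without a peak can be compared. CCAAT was found at the middle of 45.1% of 224 mm9 pairs with a peak (38.5 to 51.9) and of 20.4% of 582 pairs without (17.2 to 24.0). The BANP motif was found in 3.57% (1.55 to 6.92) and in 0 of 582, which allows a share of up to 0.632% by the exact interval. GGGCGG ran the other way, at 36.2% and 44.3% (29.9 to 42.8 and 40.2 to 48.5). CCGGAAG was found in 15.6% and 14.1%, and CACGTG, the E-box, in 1.34% and 6.87%. Median GC content was 59.4% with a peak and 64.4% without. Its part in these differences was not tested.

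The mm10 stretches between the starts gave the same order for CCAAT and the BANP motif. CCAAT was found in 39.7% of 204 stretches with a peak (32.9 to 46.8) and in 23.2% of 263 without (18.2 to 28.8). The BANP motif was found in 4 with a peak and in 0 of 263 without, which allows up to 1.39%. CCGGAAG was found in 14.7% (10.1 to 20.3) and 8.37% (5.32 to 12.4), which overlap, and GGGCGG in 34.8% and 43.3%. The stretches with a peak had a median length of 85.0 bp and those without 75.0 bp, which gives the former somewhat more room for a match. A few pairs share their starts, so some identical stretches entered both groups or the same group more than once. The stretch of Gm45935/Cab39l, counted with a peak, is also that of Setdb2/Cab39l, counted without.

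The BANP motif was found at strong peaks. The 15 divergent mm9 peaks with it had signals from 145 to 1148 with a median of 465, against a median of 67.1 for the 221 without. Of its 18 sites within 250 bp of divergent summits, 16 lay within 50 bp. The 4 mm10 pairs with the motif between their starts were Atp5pb/Wdr77, Styxl1/Mdh2, Smc1b/Ribc2 and Lrsam1/Rpl12. Their median was 378 in the optimal list, 199.6 in replicate 1 and 181 in replicate 2, against 50.4, 27.1 and 24.7 for the other 200 pairs. Other promoter peaks showed a like gap on mm9, with medians of 369 and 64.1, so it was not limited to divergent pairs.

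CCAAT showed no such steady relation to signal. Divergent mm9 peaks with it had a median of 69.8 and those without had 88.7, while the mm10 pairs with CCAAT between the starts had 60.5 and those without 42.7. Of 439 CCAAT sites within 250 bp of divergent summits, 212 lay within 50 bp of one.

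Genes of the respiratory chain and ATP synthase were among the groups with the highest share of occupied pairs. The gene lists used here match symbols by pattern, and each share can be set beside the 41.6% of all pairs and the 37.5% of the 427 pairs with no listed gene. Lists with few pairs have wide intervals, and of the 19 lists all but that of the respiratory chain have an interval that includes 41.6%. Among so many intervals, a single one that misses the overall share can arise from counting error alone. Some pairs are in more than 1 list, and the lists were chosen with earlier results known. The exception therefore does not by itself set the respiratory chain apart. Signals are given in the order optimal list, replicate 1, replicate 2. Of 27 respiratory chain pairs, 18 had a peak (66.7%, 46.0 to 83.5), and their median signal was 48.8. Atp5pb/Wdr77, Vmac/Ndufa11 and Stxbp4/Cox11, given above, led the list, while Mrpl47/Ndufb5 and Ndufa4/Phf14 had none. Counted by gene, 66.7% of 27 respiratory chain genes in divergent pairs had a summit, against 23.9% of 71 in no divergent pair. Over all genes these shares were 41.7% and 12.1%.

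Other mitochondrial genes lay nearer to the overall share. Mitochondrial ribosomal proteins had a peak at 11 of 20 pairs (55.0%, 31.5 to 76.9). The leading pair was Mrpl40/Hira, in which Hira is a chaperone of histone H3.3, with 164, 98.1 and 66.0. Ncapd2/Mrpl51, which includes a condensin subunit, had 51.0, 33.2 and 11.9, and Mrps12/Sars2 had 46.6, 25.4 and 19.5. Eme2/Mrps34 and Lrrc46/Mrpl10 had none. Enzymes, import factors and carriers had 7 of 13, led by Styxl1/Mdh2. Idh3g/Ssr4, with a subunit of isocitrate dehydrogenase, had 215, 112 and 102. Dbf4/Slc25a40 and Pdhx/Apip had none.

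Genes of translation were counted in 3 lists. Cytosolic ribosomal proteins had a peak at 9 of 14 pairs (64.3%, 35.1 to 87.2). After Zwilch/Rpl4, Med22/Rpl7a had 267, 149 and 119, and Lrsam1/Rpl12 had 266, 148 and 124. Card6/Rpl37 and Micos13/Rpl36 had none. Translation factors had 3 of 10 (30.0%, 6.67 to 65.2), or 40.0% counted by gene, and the intervals of both lists overlap. Ndufs1/Eef1b2, a complex I subunit beside an elongation factor, had 187, 79.9 and 108, and Txndc9/Eif5b had 145, 77.7 and 62.9. The third peak, at Alg3/Eef1akmt4 (43.3, 19.7 and 21.9), belongs to a methyltransferase gene, and Alg3/Eef1akmt4-ece2 repeats the same starts and was counted without a peak. Atp6v1d/Eif2s1 had none. Aminoacyl-tRNA synthetases had 4 of 8, with Lyrm4/Fars2 at 76.5, 44.0 and 31.9, beside Mrps12/Sars2. D17H6S56E-5/Vars and Ears2/Ubfd1 had none.

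Genes of RNA synthesis and processing followed. Splicing and RNA processing had a peak at 17 of 38 pairs (44.7%). Hnrnpc/Rpgrip1, an RNA-binding protein beside a retinal ciliary protein, had 295, 151 and 143. Xpc/Lsm3, which pairs a sensor of DNA damage with a splicing protein, had 289, 158 and 131. Hmbox1/Ints9, with a subunit of the Integrator complex, had 238, 131 and 105, while Bag4/Lsm1 and Bckdha/Exosc5 had none. RNA polymerases, Mediator and general factors had 8 of 23 (34.8%). Behind Noa1/Polr2b and Med22/Rpl7a came Polr1c/Yipf3 with 210.2, 111 and 99.2, and 1700088E04Rik/Polr2f had none. Bysl/Med20 was counted without a peak only because Bysl/Gm20517, which has the same starts, took the peak there (23.9 in the optimal list). Counted by gene, 39.1% of the 23 genes of this list in divergent pairs had a summit.

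DNA repair and replication had a peak at 19 of 36 pairs (52.8%, 35.5 to 69.6). Counted by gene, 55.6% of 36 in divergent pairs had a summit, against 33.7% of 92 in no divergent pair. Over all genes the same shares were 41.7% and 12.1%. Among the pairs caught by the symbol patterns of this list, which leave out Xpc for one, Ankrd49/Mre11a had the highest signal. Recql/Golt1b, with a RecQ helicase, had 106, 65.9 and 39.4. Xrcc3/Zfyve21, with a gene of homologous recombination, had 89.0, 27.9 and 60.2. Brix1/Rad1 and Emc3/Fancd2 had none. Cell cycle and mitosis had 9 of 20 (45.0%), led by Mad1l1/Nudt1, Smc1b/Ribc2 and the kinesin pair Kif24/Nudt2 (234, 138 and 107). 1110059G10Rik/Kif15 had none, nor had Cdc40/Wasf1, in which Cdc40 is a splicing factor caught by its name.

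Replication-dependent histones had a peak at 8 of 13 pairs (61.5%, 31.6 to 86.1). Their coding sequences are near-identical copies, so reads there may be shared between them, and several pairs lie in 1 cluster on chromosome 13. H2bc7/H2ac7 had 217, 94.1 and 121, H2bc9/H3c7 had 103, 51.3 and 48.6, and H2ac15/H2bc15 had 81.0, 27.1 and 52.5. H2ac11/H2bc11 and H2ac12/H2bc12 had none. The CCAAT box did not separate the occupied histone pairs from the rest. H2ac11/H2bc11 held 5 matches between its starts and H2ac12/H2bc12 held 3, as many as H2ac15/H2bc15, while H2bc7/H2ac7 held 4.

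Chromatin enzymes and remodellers had a peak at 6 of 13 pairs (46.2%). Behind Atp5pb/Wdr77 came Smarcd2/Tcam1, with a subunit of the BAF remodelling complex, at 223, 141 and 83.0. Hdac3/Rell2 and Ndufa4/Phf14 had none. Zinc finger genes had 8 of 21 (38.1%), with Zfp654/Cggbp1 at 114, 54.2 and 62.8, Mrpl50/Zfp189 at 40.2, 17.9 and 23.1 and Zfp672/Sh3bp5l at 37.4, 32.1 and 9.15. Ccdc92/Zfp664 and Fiz1/Zfp524 had none.

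Protein folding and turnover gave 9 of 18 and 9 of 24 pairs. Among chaperones, Cct5/Atpsckmt and Tsacc/Cct3, both with a subunit of the CCT chaperonin, had 272, 147 and 124, and 134, 59.7 and 74.5. Proser3/Hspb6, with a small heat shock protein, had 75.8, 40.8 and 33.6, and Atpif1/Dnajc8 and Bag1/Chmp5 had none. Among proteasome and ubiquitin genes, Pcgf2/Psmb3 had 155, 70.0 and 87.3 and Usp5/Cdca3 had 103, 39.4 and 63.7. Psmb9/Tap1, which pairs an immunoproteasome subunit with a peptide transporter of antigen presentation, had 76.0, 48.4 and 28.9. BC005624/Usp20 and Cep76/Psmg2 had none.

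Genes of transport and the cytoskeleton stood near the overall share. Nuclear pore and transport genes had a peak at 3 of 6 pairs: Parpbp/Nup37 (88.0, 46.6 and 40.2), Nup88/Rpain (40.6, 20.8 and 20.1) and Ranbp1/Trmt2a (29.7, 8.25 and 21.5). Dolk/Nup188 and Nup62cl/Dnaaf6b had none. Centrosome and cilium genes had 7 of 14, with Faap24/Cep89 at 171, 82.2 and 85.8, Tnfaip1/Ift20 at 97.1, 56.7 and 44.3 and Ift80/Smc4 at 72.9, 38.9 and 35.5. Cep170/Sdccag8 and Cep76/Psmg2 had none. Rab and vesicle genes had 10 of 22, with Exoc8/Sprtn at 121, 64.9 and 54.1, Snx5/Mgme1 at 109, 53.2 and 56.0 and Vps35/Orc6 at 86.7, 44.0 and 45.5. Aifm1/Rab33a and Alg2/Sec61b had none.

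Tissue-restricted genes had a higher share with CHD2 in divergent pairs than elsewhere, as had genes as a whole (41.7% against 12.1%). A gene of a pair also counts a peak centred on its neighbour's start, and few genes of this list were in pairs. Of 12 pairs with a tissue-restricted gene 4 had a peak (33.3%, 9.92 to 65.1). By gene, 30.8% of 13 in divergent pairs had a summit, whereas 21 of 2194 such genes in no divergent pair had a summit (0.957%). Elavl1/Ccl25, a broadly expressed RNA-binding protein beside a chemokine, had 77.9, 30.5 and 49.1. Ash2l/Kcnu1, a histone methyltransferase subunit beside a sperm potassium channel, had 65.1, 29.2 and 35.6. Il9r/Snrnp25, a cytokine receptor beside a protein of the minor spliceosome, had 39.8, 30.2 and 11.2. Cd160/Pdzk1 had no peak, nor had Cd3eap/Ppp1r13l, in which Cd3eap is a subunit of RNA polymerase I matched by name.

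Pairs known as textbook examples were looked up as well. Atm/Npat, the kinase gene of the DNA damage response beside a regulator of histone genes, had 21.8, 10.6 and 13.6. Brca1/Nbr1 had 62.6, 39.8 and 26.3, and Mcm4/Prkdc, a replicative helicase subunit beside the DNA-dependent kinase, had 67.6, 28.0 and 38.3. Gart/Son, of purine synthesis and splicing, had no peak. Hspd1/Hspe1, Surf1/Surf2 and Col4a1/Col4a2 were not counted, since their outer 5′ ends overlap by 95, 238 and 84 bp in the table used. Over all 427 pairs with 5′ ends that overlap by less than 1 kb, 118 had a peak (27.6%, 23.4 to 32.1).

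Just inside the limit of 1 kb between starts lay Pcgf2/Psmb3 (1000 bp, signal 155) and Tbc1d10c/Ppp1ca (979 bp, 29.9). Just outside lay Flii/Mief2 (1135 bp, 30.7), Actr1a/Sufu (1155 bp, 113) and Tjp3/Pip5k1c (1254 bp, 21.4). By the distance of the summit from the nearer start, the last inside were Wrap53/Trp53 (956 bp, 174), Efcab11/Tdp1 (942 bp, 65.6) and Gnl3/Pbrm1 (938 bp, 24.3). The first outside were Abhd8/Mrpl34 (1005 bp, 29.3), Utp18/Mbtd1 (1009 bp, 20.7) and Tmem69/Gpbp1l1 (1141 bp, 39.3). These values belong to peaks and not to whole pairs. Abhd8/Mrpl34, for instance, also had a divergent peak of 39.8, and Wrap53/Trp53 had another of 102 with its summit 2 bp from the Trp53 start. The signals on either side of each limit overlapped.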

How the data were processed

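CHD2 ChIP-seq peaks of 2 replicates were analysed from lists as the authors deposited them. Caller, aligner, filters and use of a control are unstated in the labels and files read here, and any of them could alter the values. The deposited signal was used within 1 list only. The summit was the deposited start plus the deposited offset, in bp.

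Gene starts on mm10 were the outer 5′ ends of 21887 protein-coding genes of RefSeq GRCm38.p6. Strand came from the RefSeq promoter table for 17492 genes and from GENCODE M1 by symbol for 4039, and 356 without strand were left out. Where both sources gave a strand, 16472 of 16521 were equal. Replicate values are those of the strongest overlapping relaxed peak. Motifs and CpG used the mm9 list, GENCODE M1 and its genome. Scripts ran in Python 3.11.15 with pandas 2.3.3, numpy 2.4.6 and scipy 1.17.1, and pairing and peak assignment were tested on simulated data. Intervals are exact Clopper-Pearson at 95%.

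The pairs and lists were chosen with earlier results of these data known. Pairs named are the 15 strongest, the 5 weakest, the 3 with the largest rank difference, 3 on each side of both limits, per list up to 3 with the strongest peak and 2 without, and textbook pairs. Some textbook pairs came from those earlier results and support nothing. A few pairs that this rule gives are not reported here.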

Additional observations from a re-analysis of the deposited data

How the results depend on the processing

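The number of occupied pairs stayed within 1.5 times of 310 under every alternative run, from 224 on mm9 to 428 with overlapping 5′ ends admitted. The share of pairs was 32.2% with the stronger 4141 peaks, 36.5% with overlapping 5′ ends and 27.8% on mm9. With 1 replicate left out it was 39.3% to 42.4%. Divergent genes kept a higher share than other genes in the settings compared, at 32.4% against 8.50% in these 4141 peaks and 27.9% against 8.55% on mm9. The signal ratio was 1.15 with the conservative list, with a 500 bp window and with gaps of at most 500 bp. It was 1.08 in the stronger 4141 peaks, 1.22 at 2.5 kb, 1.04 on mm9, and 1.19 to 1.23 with 1 replicate left out. The share of summits between the starts was 33.3% with overlapping 5′ ends, 63.1% on mm9 and 58.7% with the promoter table's starts. The median distance from the middle was 64.2 bp in the stronger 4141 peaks, 68.5 bp at 500 bp, 94.0 bp at 2.5 kb, 67.2 bp with the smaller gap, 107 bp with overlapping 5′ ends and 64.0 bp on mm9. It was 81.5 to 92.0 bp with 1 replicate left out. The cause of these shifts was not tested. Where a window of 100 bp replaced 50 bp, GGGCGG rose to 49.6%, CCGGAAG to 22.9% and AAGATGGC to 4.24% of divergent summits. Of 389 pairs found on both builds, 124 had a peak on both, 53 on mm10 only, 3 on mm9 only and 209 on neither. No paired analysis was possible because there is 1 group. Depth is unknown, so a pair without a peak may hold CHD2 below the reach of these lists.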
